A study of Mus musculus with 10 samples.

Results

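Ephx1, which encodes microsomal epoxide hydrolase, was examined with 9 other xenobiotic and oxidative-stress genes: Nqo1, Hmox1, Gclc, Gclm, Txnrd1, Srxn1, Gsta4, Gstm1 and Slc7a11. These 10 genes were taken by symbol from the 48709 genes listed in each deposited table. The set was selected on the level of Ephx1, which was high in the TRULI libraries at 5 days, so the 5-day difference of TRULI from DMSO is given below as a description. All 10 genes were counted in the tables and all passed the filter on low counts in every comparison.

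The libraries hold RNA from supporting cells of the utricle, a balance organ of the inner ear, cultured from mice at postnatal day 21. TRULI, an inhibitor of the Lats kinases of the Hippo pathway, was given at 10 μM, and its solvent DMSO at 0.1% was the control. Cells were collected either at the end of 5 days of treatment or after 5 more days without treatment, which is called withdrawal here. By the sample labels the groups are DMSO at 5 days (n = 3), TRULI at 5 days (n = 3), DMSO withdrawal (n = 2) and TRULI withdrawal (n = 2). All cells came from mice with a green fluorescent reporter driven by Lfng and were sorted for it, so the libraries hold only cells inside that gate. The sources used here do not say which animals or how many went into a library, so p-values measure only the spread between these libraries.

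The condition of 4 of the 10 libraries is in dispute. Replicates 1 and 2 of TRULI at 5 days, by label, have tables whose names call them DMSO withdrawal replicates 1 and 2. Conversely, tables named TRULI 5-day replicates 2 and 3 belong to samples labelled DMSO withdrawal replicates 1 and 2. The other 6 libraries carry the same condition in both, namely the 3 DMSO 5-day controls, the library labelled TRULI 5-day replicate 3 and both TRULI withdrawal libraries. Results are given by sample label and, beside them, by deposited name. Ccn2, a target of the coactivator Yap that Lats restrains, was measured at 714 CPM (counts scaled to a common library total by the TMM method) in the library labelled TRULI 5-day replicate 3 and at 490 and 482 CPM in the 2 labelled DMSO withdrawal. Ccn2 was between 2.04 and 15.6 CPM in the other 7 libraries, among them both labelled TRULI 5-day replicates 1 and 2. Ajuba, Mki67 and Top2a, listed for the same check, split the libraries in the same way. In the same order, Ajuba was at 143, 86.3 and 73.2 CPM, Mki67 at 26.9, 127 and 56.4 CPM and Top2a at 12.9, 83.3 and 43.3 CPM. In the other 7 libraries they were at 4.69 to 12.4, 0 to 1.65 and 0.204 to 4.61 CPM. Those levels go against the labels of the 4 disputed libraries.

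The tables sum to 2463872 to 6255149 counts, and 3 counts, taken as the limit that a count of 0 allows, correspond to 0.47 to 1.2 CPM. Intervals and limits of this kind cover counting error only. The mitochondrial ribosomal RNA mt-Rnr2 took 13.02% to 26.4% of the counts in the 6 libraries deposited under 5-day names and 1.45% to 2.53% in the 4 deposited under withdrawal names. Lfng itself was at 291 to 564 CPM in the former and at 21.2 to 100 CPM in the latter. Of 10 supporting-cell genes, Sox9, Jag1, Gjb2, Gjb6 and Tectb were present in every library, at levels that overlapped between the former and the latter. The others went with Lfng. Sox2 was at 52.4 to 89.7 CPM in the former and 31.6 to 47.4 in the latter, and Otoa at 408 to 764 and 85 to 184. Otogl was at 30.5 to 99 CPM and 15.5 to 23.4, and Hes5 at 2.37 to 26.4 and 0 to 0.204. The summed level of 10 hair-cell markers was 32.5 and 40.3 CPM in the libraries labelled TRULI 5-day replicates 1 and 2, and it ranged from 130 to 886 CPM in the others. Of 8 macrophage markers, 3 (C1qa, C1qb and Adgre1) were at 0 in every library and the sum was at most 18.1 CPM. In bulk libraries such as these, fewer cells of a type and less RNA per cell cannot be told apart.

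The 10 genes belong to the cell's defence against reactive chemicals and oxidants. The transcription factor Nrf2, encoded by Nfe2l2, is held down by Keap1, which presents it for degradation. When Keap1 is modified by electrophiles, Nrf2 accumulates and binds antioxidant response elements with a small Maf partner, while Bach1 competes for the same sites. Among its best known targets are Nqo1, Hmox1, Gclc, Gclm, Txnrd1, Srxn1 and Slc7a11, and Ephx1 and several glutathione S-transferases also respond to it in many tissues. In the inner ear these systems are best known for protection against noise and ototoxic drugs.

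RefSeq promoter windows on GRCm38.p6, each from 250 bases before to 50 bases after a start site, were available for 7 of the 10 genes, with 10 windows in all. Hmox1, Gclc and Gsta4 had no entry. The core of the antioxidant response element was searched as TGACNNNGC on both strands. It occurred in 3 of the 10 windows, those of Gclm, Srxn1 and one of the 3 for Txnrd1, and in 12.4% of all 32851 windows of that length. It was absent from the windows of Ephx1, Nqo1, Gstm1 and Slc7a11, which says only that these letters do not stand there. The core of the Tead site, searched as CATTCC on both strands, occurred in none of the 10 windows and in 14.7% of all windows. None of the 3 antioxidant matches held the AP-1 site that can overlap this element. The only Ephx1 window (chr1:181017520-181017819) belongs to a start inside the annotated gene, whose upstream end on the minus strand is chr1:181020904. No window covered that end, so the search says nothing about it. The 3 matches are shown with the stretch before this internal start of Ephx1, the gene the set turns on. Capitals mark the match, which lies on the opposite strand in each case.
Gclm, chr3:122245368-122245487, plus strand, match beginning 134 bases before the start: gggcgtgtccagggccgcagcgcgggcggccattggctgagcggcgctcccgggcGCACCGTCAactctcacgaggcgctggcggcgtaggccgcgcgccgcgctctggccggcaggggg
Txnrd1, chr10:82859059-82859178, plus strand, match beginning 92 bases before an internal start: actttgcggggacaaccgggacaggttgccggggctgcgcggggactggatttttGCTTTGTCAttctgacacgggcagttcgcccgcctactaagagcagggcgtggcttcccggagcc
Srxn1, chr2:152105542-152105571, plus strand, match beginning at base 29 of the transcript: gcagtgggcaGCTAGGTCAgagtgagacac
Ephx1, chr1:181017570-181017689, minus strand, the 120 bases before the start, with no match: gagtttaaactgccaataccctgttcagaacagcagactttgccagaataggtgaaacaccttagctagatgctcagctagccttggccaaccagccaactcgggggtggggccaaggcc

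In DMSO-treated cells at 5 days the genes were first ordered by their level per length, the counts divided by the effective length and by the protein-coding total of the library (FPKM). Gsta4 stood highest at 157 ± 52.5 FPKM (SD, n = 3, as for all means in this paragraph), followed by Nqo1 at 134 ± 64.7 FPKM. Gsta4 encodes a glutathione S-transferase with high activity on the lipid peroxidation product 4-hydroxynonenal, and Nqo1 a quinone reductase. Txnrd1 was at 68.6 ± 13.5, Gclc at 59.5 ± 33.3, Srxn1 at 48.3 ± 36.3, Gclm at 37.3 ± 7.13, Gstm1 at 36.1 ± 14.4 and Ephx1 at 22.8 ± 2.56 FPKM. Hmox1 was at 3.71 ± 5.45 FPKM and Slc7a11 at 1.03 ± 0.561 FPKM. The libraries of each gene overlapped those of the next one in this order, with 1 exception: all 3 Ephx1 values lay above all 3 Hmox1 values. The order from Gsta4 to Ephx1 is therefore not resolved between neighbours at this spread.

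**Figure D1:**
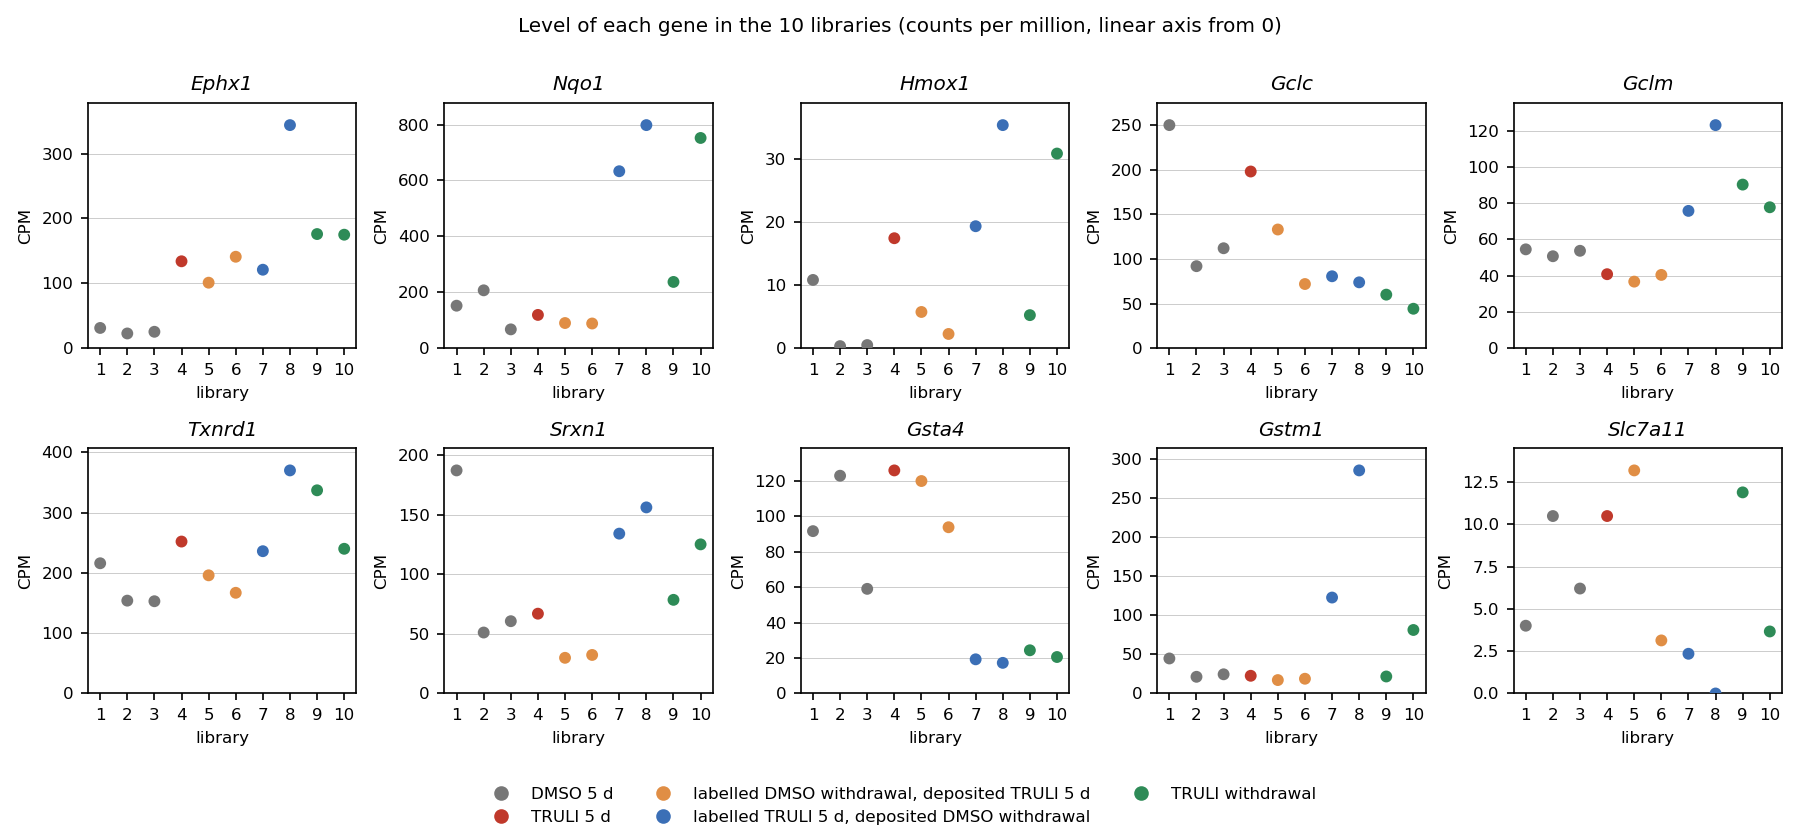
Level of each of the 10 genes in every library, in CPM on a linear axis from 0, one point per library. Positions 1 to 3 are DMSO at 5 days, 4 is the library labelled TRULI 5-day replicate 3, 5 and 6 are labelled DMSO withdrawal, 7 and 8 are labelled TRULI 5-day replicates 1 and 2, and 9 and 10 are TRULI withdrawal. Ephx1 is lowest at positions 1 to 3, between 22.7 and 31.2 CPM, and Gsta4 is lowest at positions 7 to 10, between 17.3 and 24.4 CPM.

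Ephx1 lies on the minus strand of chromosome 1 (GRCm38, chr1:180976210-181020904), and its product hydrolyses reactive epoxides made during oxidative metabolism. In the 3 DMSO 5-day controls it was measured at 31.2, 22.7 and 25.3 CPM. The libraries labelled TRULI 5-day replicates 1 to 3 gave 121, 344 and 134 CPM, those labelled DMSO withdrawal 101 and 141 CPM, and those of TRULI withdrawal 176 and 175 CPM. Every one of the 7 libraries outside the DMSO 5-day group thus lay above all 3 controls, whichever way the disputed libraries are grouped. At 5 days, all TRULI libraries lay above all DMSO libraries in 8.2% of tested protein-coding genes by label and in 10.5% by deposited name. The share for all 7 against the controls was not taken. As a description of the contrast that picked the gene, the log2 fold change of TRULI over DMSO at 5 days was 2.94 (SE 0.48) by label and 2.27 (SE 0.24) by deposited name, or 7.66-fold and 4.82-fold. The DMSO withdrawal libraries stood above the DMSO 5-day libraries by 2.21 (SE 0.28) on the log2 scale when taken by label and by 3.13 (SE 0.44) when taken by deposited name. Those values reuse the controls that chose Ephx1 and carry no test here. The exception is the comparison of TRULI with DMSO after withdrawal by deposited name, which uses none of the 6 libraries of the picking contrast by that grouping. There Ephx1 was at 175 ± 0.181 CPM with TRULI (SD, n = 2) and at 233 ± 158 CPM with DMSO (SD, n = 2), and the log2 fold change of -0.40 (SE 0.51) did not pass the test (adjusted p = 1, edgeR quasi-likelihood test). Without the library deposited as DMSO withdrawal replicate 2, the one at 344 CPM, this difference was 0.56. With the sample labels, the same comparison gave 0.54 (SE 0.35), with DMSO libraries that are among those the deposited names place in the picking contrast.

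Nqo1 encodes a quinone reductase that is widely used as a readout of Nrf2 (chr8:107388225-107403206, minus strand). It was at 152, 207 and 67.3 CPM in the DMSO 5-day controls, at 119 CPM in the library labelled TRULI 5-day replicate 3, and at 90.0 and 88.3 CPM in those labelled DMSO withdrawal. It was at 633 and 798 CPM in the libraries labelled TRULI 5-day replicates 1 and 2, and at 237 and 752 CPM after TRULI withdrawal. The 4 libraries deposited under withdrawal names all lay above the other 6. Such separation was common by deposited name. All DMSO withdrawal libraries lay above all DMSO 5-day libraries in 26.6% of tested protein-coding genes and below them in 28.3%. For TRULI withdrawal against TRULI 5 days these shares were 24.3% and 27.3%. The share for all 4 libraries against the other 6 was not taken. By deposited name Nqo1 was higher at withdrawal than at 5 days, by 2.32 (SE 0.43) on the log2 scale in DMSO (adjusted p = 0.0122) and by 2.34 (SE 0.45) between TRULI present and TRULI withdrawn (adjusted p = 0.0196, both edgeR). These comparisons share no library, but in both the later libraries are those with mt-Rnr2 at 1.45% to 2.53% of counts and Lfng at 21.2 to 100 CPM. In TRULI, culture time also goes with removal of the compound, and the part of each was not tested. The call in DMSO was lost without DMSO 5-day replicate 2, and the call in TRULI without any 1 of the 3 libraries deposited as TRULI 5 days. The TRULI difference was 1.24 without TRULI withdrawal replicate 2 and 2.96 without replicate 1. By deposited name TRULI and DMSO did not separate Nqo1 after withdrawal, with a log2 fold change of -0.54 (SE 0.50, adjusted p = 1, edgeR). By sample label the same comparison gave 2.48 (SE 0.55) and fell short of the threshold (adjusted p = 0.0623, edgeR).

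Txnrd1 and Srxn1 act on oxidized thiols, the former as the cytosolic thioredoxin reductase and the latter by restoring overoxidized peroxiredoxins. Txnrd1 (chr10:82833951-82897712, plus strand) was at 216, 154 and 153 CPM in the DMSO 5-day controls and between 167 and 370 CPM in the other 7 libraries. It was called in none of the 8 comparisons by edgeR or by DESeq2. Its gene overlaps Eid3 on the same strand, so reads of the 2 genes can be shared. Srxn1 (chr2:152105516-152111376, plus strand) was at 187, 51.1 and 60.6 CPM in the DMSO 5-day controls, and the first of these was the highest value of all 10 libraries. It was at 66.9 CPM in the library labelled TRULI 5-day replicate 3 and at 29.9 and 32.3 CPM in those labelled DMSO withdrawal. The libraries labelled TRULI 5-day replicates 1 and 2 gave 134 and 156 CPM and TRULI withdrawal 78.5 and 125 CPM. By label, TRULI withdrawal stood above DMSO withdrawal by 1.72 (SE 0.41) on the log2 scale (adjusted p = 0.0705, edgeR), and by deposited name it lay at -0.50 (SE 0.43, adjusted p = 1, edgeR).

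Glutathione synthesis is represented by Gclc and Gclm, the catalytic and modifier subunits of glutamate-cysteine ligase, and by Slc7a11, the cystine importer that supplies the cysteine. Gclc (chr9:77754535-77794485, plus strand) was at 250, 91.9 and 112 CPM in the DMSO 5-day controls, at 198 CPM in the library labelled TRULI 5-day replicate 3, and at 133 and 71.9 CPM in those labelled DMSO withdrawal. It was lower, at 80.6 and 73.8 CPM, in the libraries labelled TRULI 5-day replicates 1 and 2 and lowest, at 60 and 44.2 CPM, after TRULI withdrawal. Its largest difference among the comparisons, -1.33 (SE 0.44) on the log2 scale for TRULI withdrawn against TRULI present by deposited name, did not pass the test (adjusted p = 0.0749, edgeR), although Gclc was called lower there by DESeq2, with the replicate block and with no filter on low counts.

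Gclm (chr3:122245557-122270732, plus strand) went the other way in counts. It was at 54.5, 50.7 and 53.7 CPM in the DMSO 5-day controls and at 36.7 to 40.8 CPM in the 3 libraries deposited as TRULI 5 days. In the 4 libraries deposited under withdrawal names it was at 75.7, 123, 90.2 and 77.7 CPM, above all others. By deposited name, 26.6% of tested protein-coding genes separated upward in this way across time in DMSO and 24.3% in TRULI. By deposited name Gclm rose by 1.12 (SE 0.29) on the log2 scale from TRULI present to TRULI withdrawn (adjusted p = 0.0405, edgeR). This call was lost with the replicate block, without TRULI withdrawal replicate 1 and without any 1 of the libraries deposited as TRULI 5 days. The tables also give each gene an effective length, and for Gclm this was 1471 to 2351 bases in the libraries deposited under 5-day names against 2651 to 4400 bases in those deposited under withdrawal names. Per length, Gclm was at 23.3 to 42.9 FPKM in the former and 22.8 to 28.8 FPKM in the latter, and these ranges overlap. In DMSO by deposited name the level per length ran opposite to the counts. It was at 39.8, 42.9 and 29.3 FPKM at 5 days and at 28.7 and 26.1 FPKM at withdrawal. In TRULI it was at 31.5, 31.6 and 23.3 FPKM at 5 days and at 22.8 and 28.8 FPKM at withdrawal, which overlap. The annotated genes Gm17494 and Gm6061 overlap Gclm and can share its reads, which was not tested. The effective lengths of Nqo1, Gclc, Txnrd1, Srxn1 and Gsta4 differed by at most 16 bases across the 10 libraries.

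**Figure D2:**
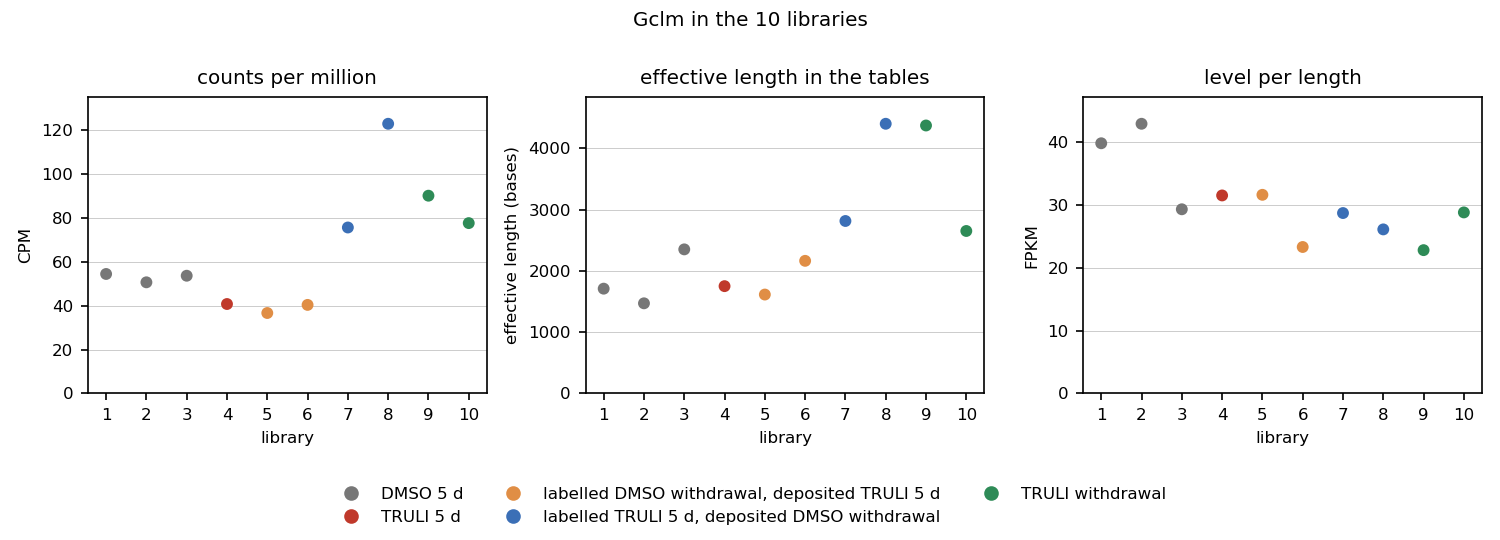
Gclm in each library, as CPM (left), effective length in bases as given in the tables (middle) and FPKM (right), all on linear axes from 0, with positions and colours for the library sets. The 4 libraries deposited under withdrawal names (positions 7 to 10) are highest in counts and in effective length. In FPKM they lie below positions 1 to 5, and position 6 lies within their range.

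Slc7a11 (chr3:49892526-50443614, minus strand) was near the limit of these libraries. It was measured at 4.01, 10.5 and 6.21 CPM in the DMSO 5-day controls, from 10 to 32 counts. It was at 2.35, 0 and 10.5 CPM in the libraries labelled TRULI 5-day replicates 1 to 3, at 13.2 and 3.14 CPM in those labelled DMSO withdrawal, and at 11.9 and 3.67 CPM after TRULI withdrawal. The count of 0 allows up to 1.08 CPM. The 2 replicates of each withdrawal group differed more than 3-fold by label, and neither edgeR nor DESeq2 called the gene in any comparison.

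The 2 glutathione S-transferases of the set, enzymes that conjugate electrophiles to glutathione, moved in opposite directions. Gsta4 (chr9:78182774-78209349, plus strand) was at 91.7, 123 and 59.1 CPM in the DMSO 5-day controls, at 126 CPM in the library labelled TRULI 5-day replicate 3, and at 120 and 93.9 CPM in those labelled DMSO withdrawal. It was at 19.3 and 17.3 CPM in the libraries labelled TRULI 5-day replicates 1 and 2 and at 24.4 and 20.6 CPM after TRULI withdrawal. The 4 libraries deposited under withdrawal names all lay below the other 6. By deposited name, 28.3% of tested protein-coding genes separated downward in this way across time in DMSO and 27.3% in TRULI. By label, Gsta4 was lower with TRULI than with DMSO after withdrawal, with a log2 fold change of -2.24 (SE 0.40), and passed the test (adjusted p = 0.0445, edgeR), but not without either library labelled DMSO withdrawal. By deposited name the same comparison gave 0.31 (SE 0.62, adjusted p = 1, edgeR). By deposited name Gsta4 was instead lower at withdrawal than at 5 days, with log2 fold changes of -2.32 in DMSO (SE 0.40, adjusted p = 0.0107) and -2.30 in TRULI (SE 0.32, adjusted p = 0.0105, both edgeR), or 5.00-fold and 4.93-fold lower. The call in DMSO was lost without DMSO 5-day replicate 2 and the call in TRULI without the library deposited as TRULI 5-day replicate 2. The 2 groupings thus place the same split of libraries under treatment or under time, which in TRULI goes with removal of the compound. The same 4 libraries are those with 1.45% to 2.53% of counts in mt-Rnr2 and with Lfng at 21.2 to 100 CPM, and the part of either in the Gsta4 difference was not tested.

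Gstm1 (chr3:108012255-108017973, minus strand) was at 44.9, 21.4 and 24.6 CPM in the DMSO 5-day controls, at 22.7 CPM in the library labelled TRULI 5-day replicate 3, and at 17.2 and 18.9 CPM in those labelled DMSO withdrawal. The libraries labelled TRULI 5-day replicates 1 and 2 stood apart with 123 and 286 CPM, and TRULI withdrawal gave 21.8 and 81.4 CPM. By deposited name it rose by 2.75 (SE 0.45) on the log2 scale, or 6.75-fold, from DMSO at 5 days to DMSO withdrawal (adjusted p = 0.00905, edgeR), a call lost without DMSO 5-day replicate 2. Without the library deposited as DMSO withdrawal replicate 2 the difference was 2.05. The log2 fold change of TRULI over DMSO after withdrawal was -2.00 (SE 0.67) by deposited name (adjusted p = 0.923) and 1.52 (SE 0.64) by label (adjusted p = 0.195, both edgeR). Gstm1 has close paralogs, and its counts may hold reads of Gstm2 to Gstm7. Of these, Gstm3 was at 0 in every library, Gstm4 ranged from 2 to 46.8 CPM and Gstm5 from 24.1 to 62.6 CPM. In the DMSO 5-day controls Gstm5, at 57.7, 62.6 and 49 CPM, lay above Gstm1.

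Hmox1 encodes the inducible heme oxygenase (chr8:75093621-75100589, plus strand). It was measured at 10.8, 0.329 and 0.497 CPM in the DMSO 5-day controls, which are 27, 1 and 2 counts. It was at 19.3, 35.3 and 17.4 CPM in the libraries labelled TRULI 5-day replicates 1 to 3, at 5.73 and 2.25 CPM in those labelled DMSO withdrawal, and at 5.23 and 30.8 CPM after TRULI withdrawal. Replicates lay far apart in the DMSO 5-day and TRULI withdrawal groups, and edgeR called the gene in no comparison. DESeq2, and edgeR with no filter on low counts, called it higher at DMSO withdrawal than at DMSO 5 days by deposited name. With no filter edgeR also called it higher with TRULI at 5 days by label, where values are descriptions. Macrophages express Hmox1 strongly. Cd68, the macrophage marker with the highest level here, was at 18.1 CPM in TRULI withdrawal replicate 2, where Hmox1 was at 30.8 CPM, and at 6.12 CPM where Hmox1 peaked, while C1qa, C1qb and Adgre1 were at 0 throughout. Ptprc, Csf1r and Tyrobp were at most 0.72, 0.784 and 0.225 CPM. Lyz2 was highest in the library labelled DMSO withdrawal replicate 1, at 6.23 CPM, where Hmox1 was at 5.73 CPM. The part of macrophages in the Hmox1 level was not tested.

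The members were then counted in each comparison, with edgeR's quasi-likelihood test, a Benjamini-Hochberg adjusted p under 0.05 over all genes tested, and beside them the share of all tested protein-coding genes that passed in each direction. At 5 days by label, 0 of 10 passed, against 0.00945% of genes higher and 0% lower with TRULI. At an unadjusted p under 0.05 there were 4 (Nqo1, Hmox1, Ephx1 and Gstm1, all higher), beside 1025 of 10580 tested protein-coding genes higher and 425 lower. DESeq2 called 2, beside 207 protein-coding genes higher and 60 lower. Without the library labelled TRULI 5-day replicate 3, the only one of that group whose label and name agree, edgeR called 4. Shares over all genes are not given for fits that leave out a library, here or below, so those counts cannot be judged against them. At 5 days by deposited name, 1 of 10 passed (Ephx1), against 2.17% of genes higher and 1.14% lower. With the deposited replicate number as a block 2 members were called, Ephx1 higher and Srxn1 lower, beside 636 protein-coding genes higher and 469 lower. This contrast picked the set, so nothing is read from either count.

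After withdrawal by label, 1 of 10 members passed (Gsta4, lower with TRULI), against 0.985% of genes higher and 1.06% lower. With the replicate number as a block, and likewise with DESeq2, 3 passed: Nqo1 and Srxn1 higher and Gsta4 lower. Over all protein-coding genes the block called 690 higher and 515 lower, and DESeq2 called 813 higher and 557 lower. The count fell to 0 without either library labelled DMSO withdrawal, and it was 6 without TRULI withdrawal replicate 1 and 4 without replicate 2. After withdrawal by deposited name, 0 of 10 passed by edgeR and by DESeq2. Over all protein-coding genes edgeR called 0% in either direction, and DESeq2 called 41 higher and 9 lower. At an unadjusted p under 0.05 only Gstm1 of the members did, lower with TRULI, beside 339 of 10845 tested protein-coding genes higher and 151 lower.

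Across time in DMSO by label, Ephx1 alone of the 10 passed (higher), against 2.04% of genes higher and 0.449% lower. By deposited name all of these libraries belong to the contrast that picked Ephx1. By deposited name, 3 of 10 were higher at withdrawal than at 5 days (Nqo1, Ephx1 and Gstm1) and 1 lower (Gsta4), against 10.9% of genes higher and 8.3% lower. Ephx1 is in both counts across time in DMSO as a description, since the DMSO 5-day controls that picked it are in both groupings. The count was 0 without DMSO 5-day replicate 2 and 8 without the library deposited as DMSO withdrawal replicate 1. Across time in TRULI by label, 0 of 10 passed by edgeR, by DESeq2 and at an unadjusted p under 0.05. Over all protein-coding genes edgeR called 0% in either direction, and DESeq2 called 8 higher and 2 lower. At the unadjusted p, 205 were higher and 142 lower. By deposited name, 2 of 10 were higher after withdrawal (Nqo1 and Gclm) and 1 lower (Gsta4), against 8.22% of genes higher and 5.92% lower. Leaving out the libraries deposited as TRULI 5-day replicates 1, 2 or 3 lowered the count to 1, 0 and 1. The time comparisons and the treatment comparisons share their libraries, so their values are not independent of each other. Culture time here runs together with the end of treatment, which in TRULI is removal of the compound.

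**Figure D3:**
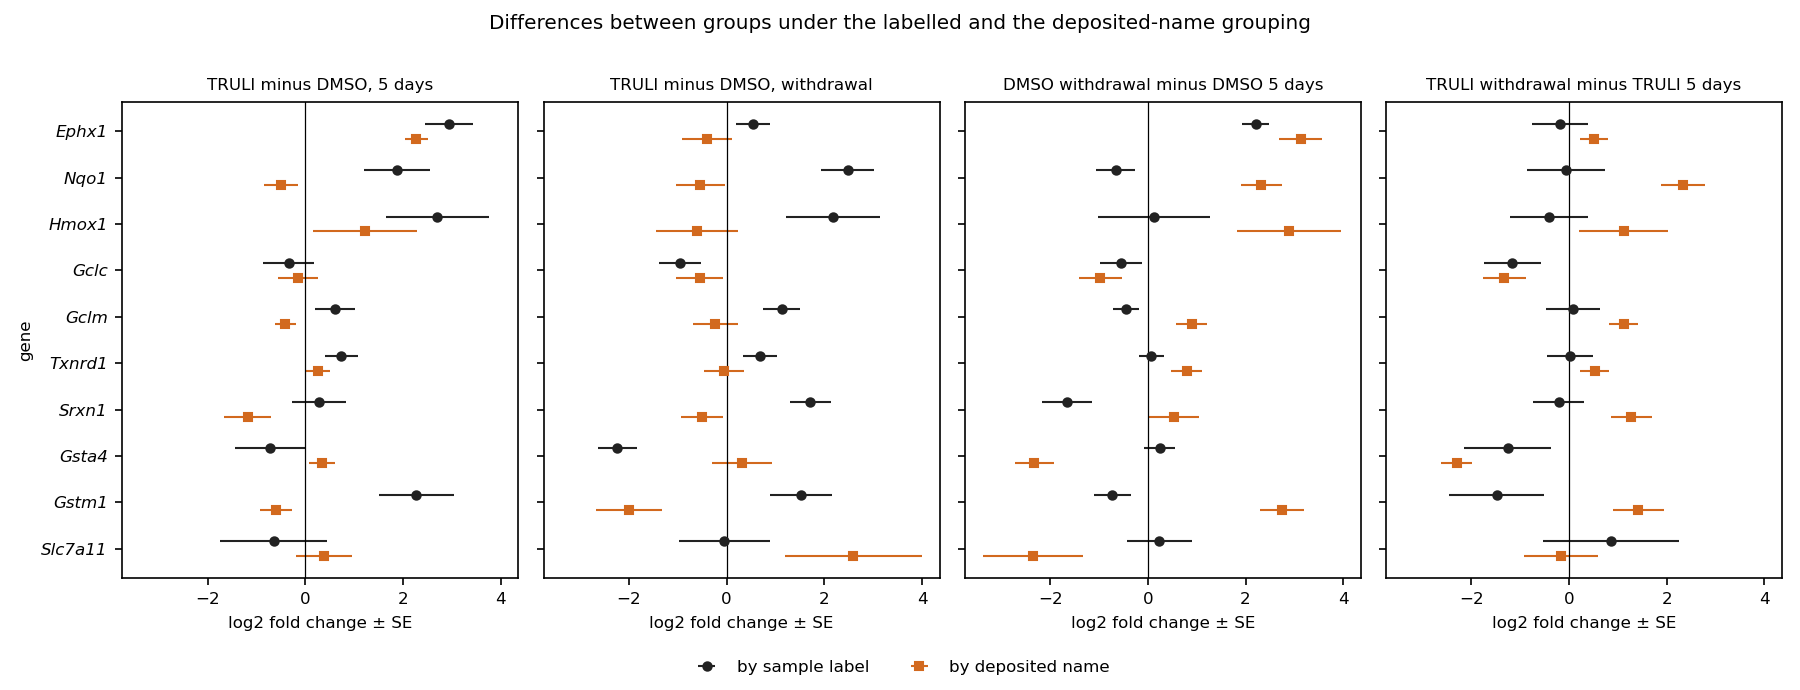
Log2 fold change (edgeR, error bars are standard errors) of each gene in the 4 comparisons, by sample label (black circles) and by deposited name (orange squares). Ephx1 is positive at 5 days under both groupings, 2.94 and 2.27, while Nqo1, Gsta4 and Gstm1 after withdrawal lie on opposite sides of 0 under the 2 groupings.

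The regulators of Nrf2 were read next. Nfe2l2 was at 316, 372 and 300 CPM in the DMSO 5-day controls and between 133 and 235 CPM in the other 7 libraries, so that all 3 controls lay above the rest. By deposited name, the controls lay above all TRULI 5-day libraries in 10.9% of tested protein-coding genes and above all DMSO withdrawal libraries in 28.3%. Nfe2l2 passed the test in none of the 8 comparisons. Its lowest adjusted p was 0.0712 (edgeR), for a difference of -0.89 (SE 0.31) on the log2 scale between DMSO withdrawal and DMSO at 5 days by deposited name. Keap1 was at 220 to 294 CPM in the 4 libraries deposited under withdrawal names and at 48.6 to 75.5 CPM in the other 6. By deposited name it was higher at withdrawal than at 5 days, by 2.19 (SE 0.27) on the log2 scale in DMSO (adjusted p = 0.00539) and by 2.01 (SE 0.31) in TRULI (adjusted p = 0.0126, both edgeR). In these 2 comparisons 26.6% and 24.3% of tested protein-coding genes had all withdrawal libraries higher. The same libraries differ in mt-Rnr2 share and in Lfng, and the part of either was not tested. By label the Keap1 difference after withdrawal, 1.97 (SE 0.39), had an adjusted p of 0.0504 (edgeR). Bach1, the repressor of antioxidant response elements, was at 10.6 to 35.7 CPM and Sqstm1, the autophagy adaptor that sequesters Keap1, at 199 to 598 CPM. Neither passed in any comparison.

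A wider set of 117 genes in 11 lists covered these regulators, glutathione and thioredoxin metabolism, NADPH supply, xenobiotic enzymes and receptors, efflux, heme and iron, superoxide removal and Atf4 targets. At 5 days by label 0 of 82 tested genes passed by edgeR, with 21 at an unadjusted p under 0.05 and 9 by DESeq2. Of the 21, 13 were higher and 8 lower, beside 1025 and 425 of 10580 tested protein-coding genes. DESeq2 called 6 higher and 3 lower, beside 207 and 60 of all protein-coding genes. By deposited name 2 were higher and 2 lower of 84, against 2.17% and 1.14% of all genes, and the 4 calls became 1 to 4 on leaving out a library. Gpx2, a glutathione peroxidase of epithelia, was at 3260, 3300 and 1480 CPM in the DMSO 5-day controls and at 327 to 390 CPM in the 3 libraries deposited as TRULI 5 days, a log2 fold change of -2.89 (SE 0.32, adjusted p = 0.0019). Aldh3a2, a fatty aldehyde dehydrogenase, was also lower, at -0.85 (SE 0.20, adjusted p = 0.0498). Gpx8, a peroxidase of the endoplasmic reticulum, was higher by 1.14 (SE 0.23, adjusted p = 0.0277). Chac1, an Atf4 target that degrades glutathione, had at most 1 count in each control and was at least 8.74-fold higher (adjusted p = 0.0148), taken against a mean of 3 counts per control library. With the replicate block, 7 genes of the wider set were higher and 11 lower, beside 636 and 469 of all protein-coding genes (all edgeR).

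After withdrawal by label, 2 of 88 were higher and 1 lower, against 0.985% and 1.06% of all genes. Gpx3, a secreted glutathione peroxidase, was higher with TRULI by 3.25 (SE 0.52, adjusted p = 0.0406) and Ahr, the aryl hydrocarbon receptor, by 2.85 (SE 0.50, adjusted p = 0.0445), while Gpx8 was lower at -2.66 (SE 0.45, adjusted p = 0.0425, all edgeR). The replicate block and DESeq2 raised these to 7 higher, with 6 and 5 lower. Over all protein-coding genes the block called 690 higher and 515 lower, and DESeq2 called 813 and 557. None of the 88 passed with all 10 libraries in one fit, nor without either library labelled DMSO withdrawal, and 20 and 13 passed without TRULI withdrawal replicates 1 and 2. By deposited name 0 of 87 passed by edgeR and by DESeq2, with 4 at an unadjusted p under 0.05, beside 339 higher and 151 lower over all protein-coding genes. Ahr was there at 346 and 140 CPM after TRULI withdrawal against 101 and 98 CPM in the libraries deposited as DMSO withdrawal, and at 32.3 to 41.9 CPM in the other 6.

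Across time in DMSO by deposited name, 12 of 84 genes were higher and 9 lower, shares not far above the 10.9% and 8.3% of all genes. The medians on the log2 scale were -0.10 for the 84 and -0.05 for all genes tested. These 21 calls became 0 without DMSO 5-day replicate 2, 9 without replicate 1 and 40 without the library deposited as DMSO withdrawal replicate 1. The rises were led by Prdx4 (3.33, SE 0.34), the peroxiredoxin of the secretory pathway, Cbr3 (3.14, SE 0.73), a carbonyl reductase, and Ftl1 (3.03, SE 0.38), the ferritin light chain. Slc7a5, Keap1, Abcc1, Gpx3 and Prdx5 were the next, at 2.33 to 1.59. Ftl1 was at 427 to 603 CPM in the DMSO 5-day controls and at 2640 and 5790 CPM in the libraries deposited as DMSO withdrawal. The falls were led by Gpx8 (-2.83, SE 0.47), Ephx4 (-2.79, SE 0.63), Sod1 (-2.36, SE 0.41), the cytosolic superoxide dismutase, and Akr1a1 (-1.79, SE 0.31), an aldehyde reductase. Tkt, G6pdx, Sod2 and Gstm5 followed at -1.65 to -1.23. Their adjusted p-values lay between 0.00362 and 0.0462 (edgeR).

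Across time in TRULI by deposited name, 7 of 88 were higher and 6 lower, shares near the 8.22% and 5.92% of all genes. These 13 calls became 3, 0 and 5 without the libraries deposited as TRULI 5-day replicates 1, 2 and 3. Ahr (2.76, SE 0.40), Gpx3 (2.61, SE 0.55), Prdx4 (2.34, SE 0.49), Ftl1 (2.06, SE 0.39), Prdx1 (1.98, SE 0.33) and Gpx2 (1.63, SE 0.35) rose beside Keap1. Phgdh, a serine-synthesis enzyme, fell by 2.77 on the log2 scale (SE 0.74). Gpx8 (-2.68, SE 0.37), Tkt (-1.48, SE 0.40), Sod1 (-1.31, SE 0.30), Psat1 (-1.21, SE 0.33) and Akr1a1 (-1.04, SE 0.27) fell with it. By label 0 of 87 passed across time in TRULI by edgeR and by DESeq2, with 1 at an unadjusted p under 0.05, beside 205 higher and 142 lower over all protein-coding genes. By label across time in DMSO, 1 of 85 was higher and 2 lower, against 2.04% and 0.449% of all genes. Gpx2 fell by 2.89 on the log2 scale (SE 0.39, adjusted p = 0.00333) and Gpx3 fell by 1.75 (SE 0.38, adjusted p = 0.0366). Chac1 was at least 4.89-fold higher (adjusted p = 0.0474, all edgeR), taken against 3 counts per control library. Both libraries labelled DMSO withdrawal are deposited as TRULI 5 days, so these values share libraries with the 5-day comparison by deposited name.

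**Figure D4:**
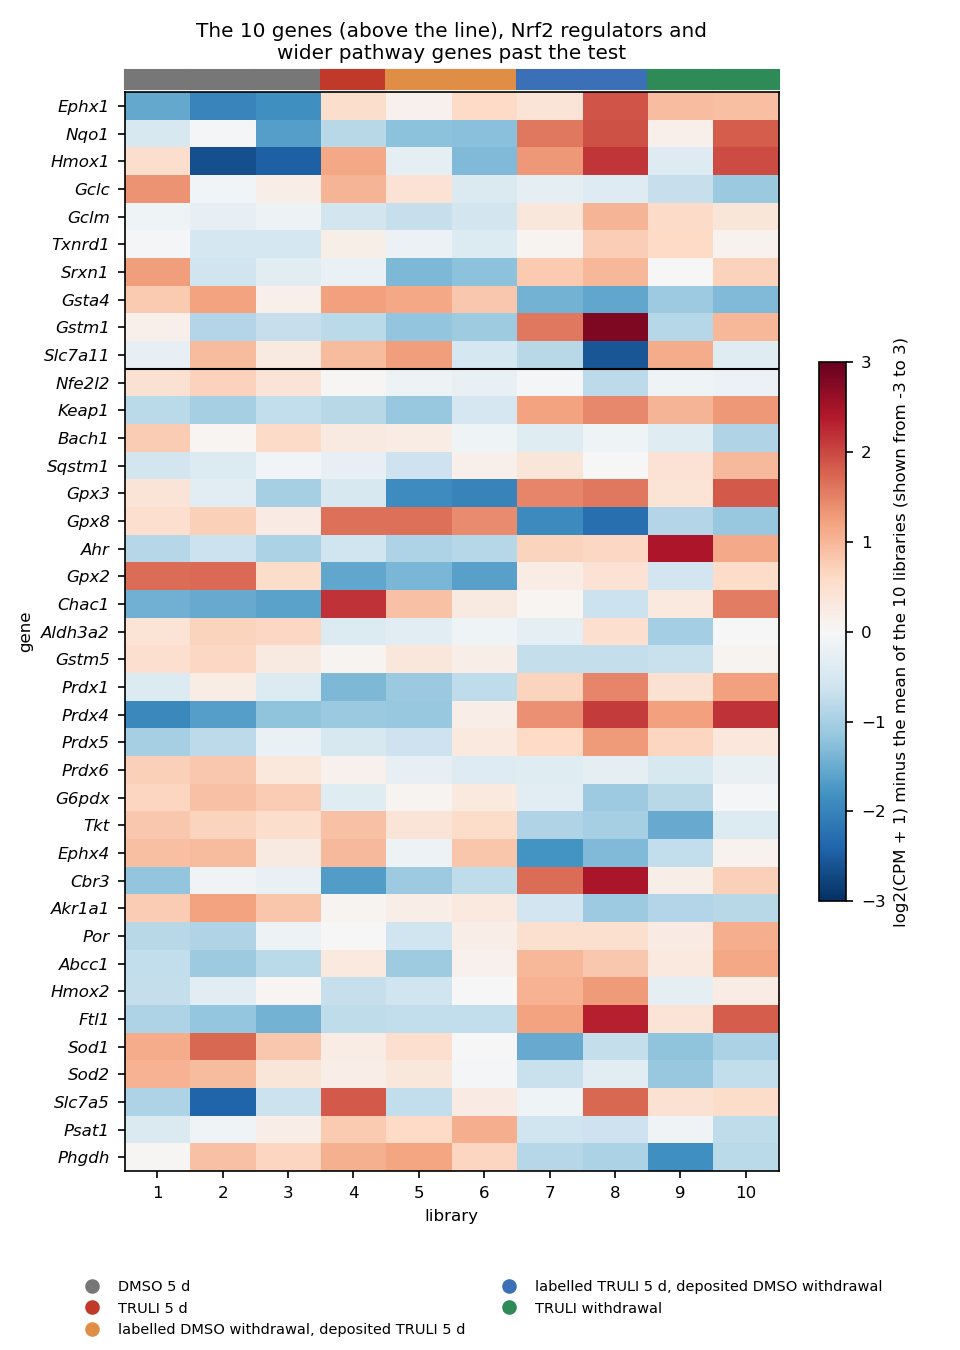
Log2(CPM + 1) of each gene minus its mean over the 10 libraries, for the 10 genes (above the line), 4 Nrf2 regulators and each gene of the wider lists that passed the test in any comparison; columns are libraries in the order of the plot of levels, and the colour scale is shown from -3 to 3. Ephx1 is low in columns 1 to 3 only, whereas Gsta4, Keap1, Prdx4 and Ftl1 divide columns 7 to 10 from columns 1 to 6.

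The genes whose levels most resembled those of Ephx1 were sought among 8272 protein-coding genes with a mean of at least 10 CPM, by Pearson's r of log2(CPM + 1) over the 10 libraries, as a description, since the points share their groups and the differences in mt-Rnr2 share. Of the 5 closest, 4 were Samd4 (r = 0.973), Ppp1r26 (0.958), Bloc1s2 (0.950) and R3hdm1 (0.949). Samd4, an RNA-binding protein, was at 1.6, 0 and 0.994 CPM in the DMSO 5-day controls and at 11.5 to 40.7 CPM in the other 7 libraries. Ppp1r26, a regulatory subunit of protein phosphatase 1, was at 14.4 to 20.1 CPM and at 33.2 to 51.1 CPM in the same sets. Among the other 9 members the values with Ephx1 ran from 0.77 for Txnrd1 and 0.72 for Hmox1, through 0.53 for Nqo1, 0.48 for Gclm, 0.47 for Gstm1 and 0.15 for Srxn1, to -0.44 for Slc7a11, -0.49 for Gclc and -0.58 for Gsta4. None of them was among the 5 closest genes.

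**Figure D5:**
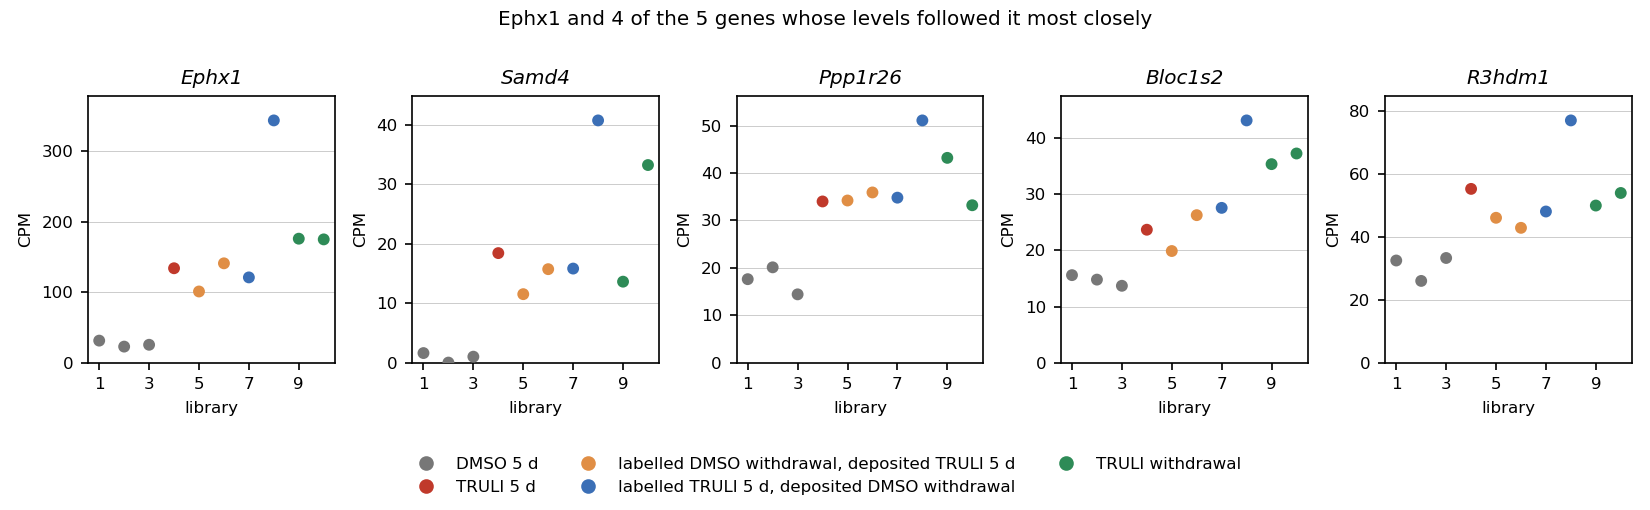
CPM of Ephx1 and of 4 of the 5 genes with the highest correlation to it, one point per library, on linear axes from 0 with positions and colours for the library sets. In each panel the 3 DMSO 5-day controls (positions 1 to 3) lie below the other 7 libraries.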

How the data were processed

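Per its methods, the study aligned reads to the GRCm38 build by STAR. The authors deposited, for each library, a table of expected counts per gene, not normalized, with an effective length in bases for each gene. The counting program is not given in the sources used here, nor is strand. The methods name a QIAseq kit, the labels poly(A) selection and a TruSeq kit. Expected counts were rounded to whole numbers, filtered with filterByExpr, scaled with TMM and compared with the quasi-likelihood test of edgeR 4.0.16 (R 4.3.3), with the 2 groups of a comparison in each fit. CPM use TMM factors over all 10 libraries, and FPKM use the effective length and the protein-coding total. Of 48709 genes 48349 matched GENCODE M21, and 21695 are protein-coding. The code was tested on simulated counts.

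The members, lists and tests were chosen with earlier results of these data known. Named genes were the 10 members, 4 Nrf2 regulators, the genes of the wider lists past an adjusted p of 0.05 with a log2 fold change beyond 1 (at most 8 in each direction per comparison) and the 5 genes most like Ephx1, of which 1 is not reported here. Aldh3a2, and the genes of the closing observations, were named after their values were seen. By deposited name at 5 days, same-numbered libraries deviated together (correlations 0.393, 0.191 and 0.325), so the replicate number was also used as a block. By label they did not (-0.168, 0.068 and -0.206). No 2 libraries held the same counts, with a chi-square per degree of freedom of at least 15.3. DESeq2 1.42.0 was an alternative.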

Additional observations from a re-analysis of the deposited data

How the results depend on the processing

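Counts of members past the test moved by more than 1.5 times in 30 of 94 reruns. At 5 days by label the count of 0 became 2 with DESeq2, 4 with no filter, 1 by deposited name, 1 without the 4 disputed libraries and 0 to 4 on leaving out a library. After withdrawal by label the count of 1 became 3 with the replicate block, 3 with DESeq2, 4 with no filter, 0 with all 10 libraries in one fit, 0 by deposited name and 0 to 6 on leaving out a library. Across time in DMSO by label the count of 1 became 2 with the replicate block, DESeq2 or no filter, 0 with all 10 libraries and 4 by deposited name. Over all protein-coding genes the block called 367 higher and 195 lower there, DESeq2 310 and 173, and the fit with no filter 570 and 200. Across time in TRULI by label the count of 0 became 3 by deposited name. By deposited name, the 5-day count of 1 became 2 with the replicate block or no filter, the withdrawal count of 0 became 1 with no filter, the DMSO time count of 4 ranged from 0 to 8 on leaving out a library, and the TRULI time count of 3 became 5 with DESeq2, 6 with no filter and 0 to 4 on leaving out a library. Fits with no filter also called more of all protein-coding genes. By label they called 488 higher and 91 lower at 5 days, and 951 and 642 after withdrawal. By deposited name they called 681 and 329 at 5 days, 129 and 40 after withdrawal, and 1597 and 1172 across time in TRULI. There DESeq2 called 1484 higher and 1258 lower. The sources used here do not say that same-numbered libraries were prepared together. After withdrawal their correlation was 0.199 by label and 0.18 by deposited name, near the lowest 5-day value by deposited name (0.191). Whether the numbers mark pairs is thus not known.

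Single members changed sign as follows, as log2 fold changes. At 5 days, where values are descriptions, grouping by deposited name turned Nqo1 to -0.49, Gclm to -0.41, Srxn1 to -1.18, Gsta4 to 0.34, Gstm1 to -0.60 and Slc7a11 to 0.38, and leaving out the 4 disputed libraries turned the same 6 and Gclc. Leaving out 1 library gave there -0.98 to 0.22 for Gclc and -0.04 to 1.1 for Srxn1 by label, and -0.55 to 0.40 for Gclc and -0.01 to 0.79 for Slc7a11 by deposited name. Grouping by deposited name in place of label turned, after withdrawal, Nqo1 to -0.54, Hmox1 to -0.60, Gclm to -0.23, Txnrd1 to -0.05, Srxn1 to -0.50, Gsta4 to 0.31, Gstm1 to -2.00 and Slc7a11 to 2.59. It also turned Ephx1 to -0.40 after withdrawal. It turned, across time in DMSO, Nqo1 to 2.32, Gclm to 0.89, Srxn1 to 0.53, Gsta4 to -2.32, Gstm1 to 2.75 and Slc7a11 to -2.35. It turned, across time in TRULI, Ephx1 to 0.51, Nqo1 to 2.34, Hmox1 to 1.13, Srxn1 to 1.27, Gstm1 to 1.42 and Slc7a11 to -0.16. Without the 4 disputed libraries, the TRULI time differences by label were 0.41 for Ephx1, 2.07 for Nqo1, 0.07 for Hmox1, 0.63 for Srxn1, 1.21 for Gstm1 and -0.41 for Slc7a11. With the replicate block by label, Slc7a11 was 0.03 after withdrawal and -0.02 across time in DMSO, and across time in TRULI Gclm was -0.20, Txnrd1 -0.05 and Gsta4 0.30. Leaving out 1 library at a time gave, by label, -1.16 to 1.28 for Slc7a11 after withdrawal. Across time in DMSO by label it gave -0.68 to 0.65 for Hmox1, -1.04 to 0.02 for Gclc, -0.03 to 0.26 for Txnrd1 and -1.10 to 0.92 for Slc7a11. Across time in TRULI by label it gave -0.45 to 0.47 for Ephx1, -1.10 to 0.54 for Nqo1, -2.16 to 0.36 for Hmox1, -0.23 to 0.54 for Gclm, -0.25 to 0.27 for Txnrd1, -0.57 to 0.08 for Srxn1, -1.69 to 0.31 for Gsta4 and -0.22 to 2.59 for Slc7a11. By deposited name it gave, after withdrawal, -0.97 to 0.56 for Ephx1, -1.58 to 0.07 for Nqo1, -2.36 to 0.18 for Hmox1, -0.55 to 0.17 for Gclm and -0.36 to 0.31 for Txnrd1, and across time in TRULI -0.70 to 2.18 for Hmox1 and -1.24 to 0.40 for Slc7a11. The cause of these changes was not tested, beyond the smaller number of libraries in a fit that leaves one out. A lone library left in a group is assumed to vary like the other group. Slc7a11 was at 0 to 68 counts a library and Hmox1 at 1 to 151, and the part of depth in their changes was not tested.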

Other observations

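Several genes that often accompany Ephx1 in xenobiotic metabolism were at or near 0. Of the other epoxide hydrolases, Ephx2 was at most 2.47 CPM and Ephx3 at most 0.497 CPM, while Ephx4 was measured at 1.57 to 16.3 CPM. The receptors Nr1i2 (PXR) and Nr1i3 (CAR) were at most 0.527 and 0.612 CPM, and Ahrr, Ugt1a6a, Ugt1a7c and Sult1a1 had no count in any library. Cyp1a1, the standard target of Ahr, was at most 5.8 CPM. Among 21 glutathione S-transferases beyond the members, Gsta2 and Gstm3 had no count, and Mgst3 was at 42.1 to 84 CPM.

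Among the antioxidant genes of the lists, Prdx1 was measured at 1180 to 8310 CPM, Ftl1 at 427 to 5790 CPM and Gpx2 at 327 to 3300 CPM. Chac1 and Slc7a5, both Atf4 targets, were highest in the library labelled TRULI 5-day replicate 3, at 16.1 and 68.2 CPM. Next came TRULI withdrawal replicate 2 for Chac1, at 9.99 CPM, and the library labelled TRULI 5-day replicate 2 for Slc7a5, at 63.0 CPM, and in the DMSO 5-day controls they were at 0.249 to 0.401 and at 2.64 to 11.4 CPM.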
